A study of Mus musculus with 8 samples.

Results

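The genes described here are 10 members of the insulin-like growth factor (IGF) system, the ligands Igf1 and Igf2, the receptors Igf1r and Igf2r, and the binding protein genes Igfbp2, Igfbp3, Igfbp4, Igfbp5, Igfbp6 and Igfbp7. They were taken by symbol from the array's annotation, which named all 10, among 20842 named genes. Every array feature (a spot of probe) of each gene was kept, 29 features out of 31425 named ones. Lung RNA of newborn C57Bl/6J mice was profiled on 1-colour Agilent arrays, after the pups had been kept in a chamber at 20% oxygen from birth (day 0) to day 3. Of the 8 arrays, 4 are labelled Fgf10+/-, for pups with 1 disrupted copy of the gene of fibroblast growth factor 10, and 4 are labelled wild type, with the same strain, age, oxygen and tissue. The sources used here do not give the allele, litter or sex, and the heterozygous pups keep an intact Fgf10 copy. The submitters call the samples independent. The SDs given for a genotype below measure the spread between its 4 lungs. The standard errors come from a fit that pools both genotypes and draws each gene's variance toward a value shared by all genes.

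IGF-1 and IGF-2 are small secreted growth factors that act through the tyrosine kinase receptor encoded by Igf1r to drive growth and survival. Igf2r encodes a clearance receptor that carries IGF-2 to the lysosome and also sorts lysosomal enzymes. The binding proteins hold IGFs in tissue and blood and set how much of them reaches the receptor, and in the mouse, loss of Igf1r is lethal at birth with underdeveloped lungs. In mouse lung, Igfbp2 is known as a marker of maturing alveolar type 1 cells, the flat cells of gas exchange.

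The 10 genes were proposed as a set with the difference between the genotypes in view. That difference is therefore given as a description, with the standard error (SE) of a limma fit over all named genes and with no p. Values are log2 signals that the authors had brought to a common distribution, between 1.51 and 15.99, with a median of 3.47 over all features. A difference of 1 on this scale is a doubling of signal. Where a gene has several features, that with the highest mean over the 8 arrays stands for it. Bulk lung RNA cannot tell fewer cells of a type from less RNA per cell.

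Fgf10 itself had log2 signals of 7.55, 7.96, 7.96 and 8.33 in replicates 1 to 4 of the arrays labelled Fgf10+/-, against 7.49, 7.81, 6.89 and 7.64 in the arrays labelled wild type. The groups overlapped, and all 10 Fgf10 features had a higher mean in the arrays labelled Fgf10+/-, by 0.07 to 0.49. These features read the same 8 RNAs and are not independent measurements. The gene that the labels call heterozygous was therefore not lower in those arrays. The sources used here do not place its features relative to the disrupted part. Every direction below rests on the labels. Wild-type replicate 4 stood apart from the rest by genes of neighbouring tissues. The mean log2 signal of 16 skeletal muscle genes was 7.65 in that array and at most 4.16 in the other 7, and that of 13 cartilage genes was 7.14 there and at most 3.86 elsewhere. Lung-defining genes were well above the array median in all 8 arrays, with a mean over 14 alveolar type 2 markers between 11.28 and 12.06. The mean over 11 liver genes was near the floor, between 3.06 and 3.70.

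Igf1 and Igfbp2 had higher signals in every array labelled Fgf10+/- than in any labelled wild type, while the genotypes overlapped for the other 8 genes. Igfbp2 was 2.58-fold and Igf1 1.74-fold higher in the arrays labelled Fgf10+/-. Igf2, the receptors and Igfbp3 to Igfbp7 differed by less than 0.45 on the log2 scale in either direction. Groups that do not overlap, with the Fgf10+/- arrays higher, occurred for 2.99% of all named genes, with them lower for 4.4% and in either direction for 7.39%. Since the set was chosen with these values known, nothing is read from the count of 2 out of 10. Of the 10 genes 6 had a higher and 4 a lower mean in the arrays labelled Fgf10+/-, where 49.8% of all named genes had a higher mean. The median of the 10 log2 differences was 0.25, beside -0.00 over all genes.

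**Figure D1:**
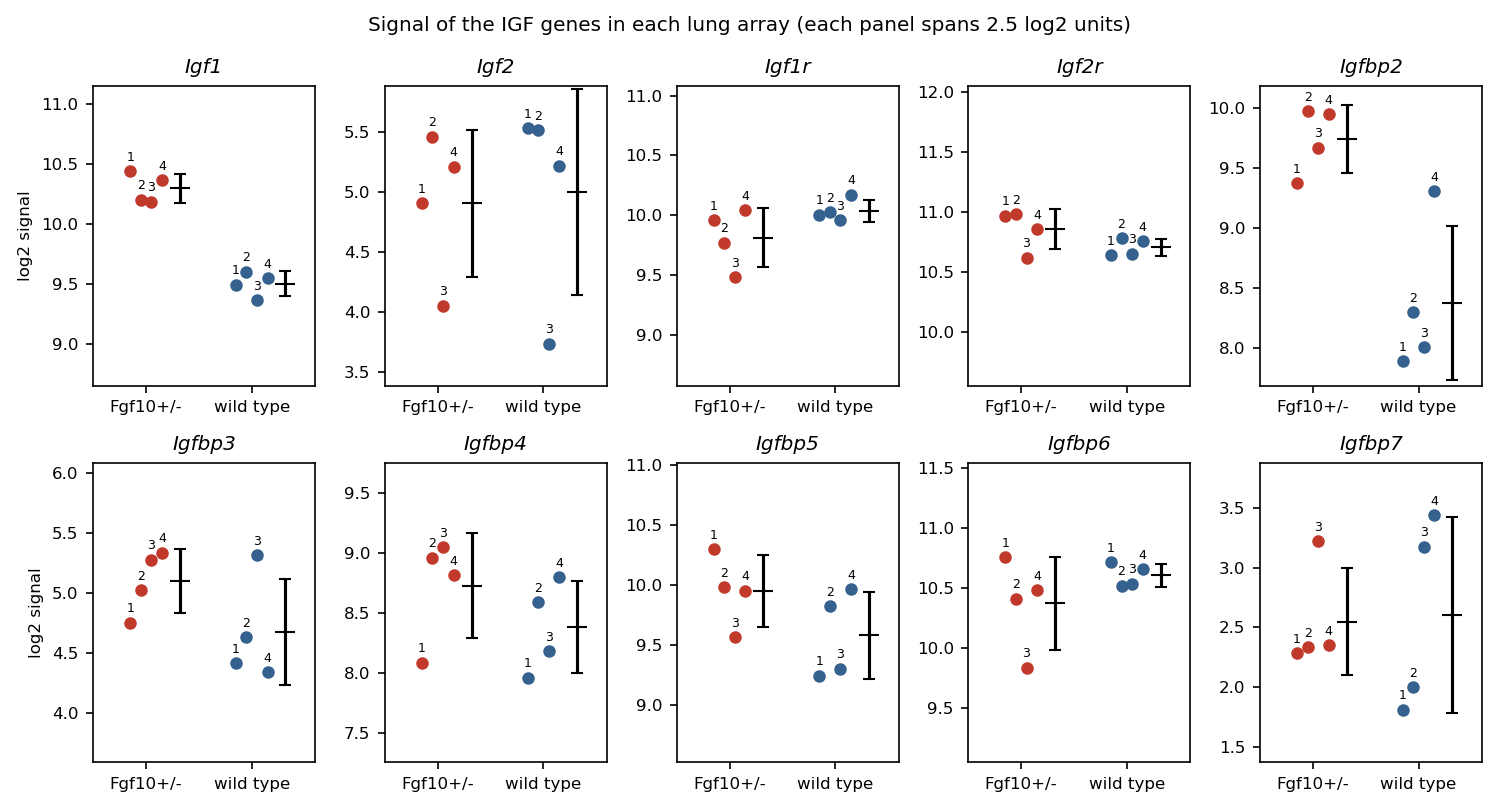
Log2 signal (vertical axis) of each of the 10 IGF genes in the 4 arrays labelled Fgf10+/- (red, left) and the 4 labelled wild type (blue, right), numbered by replicate, with mean and SD as black bars. The genotypes are parted for Igf1 and Igfbp2 and overlap in the other 8 panels. Wild-type replicate 4 is the highest wild-type array for Igfbp2 at 9.30.

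Igf1 encodes the ligand that mediates much of the growth hormone effect on body growth and is also made locally by mesenchymal cells and macrophages. Its log2 signal was 10.44, 10.20, 10.19 and 10.36 in replicates 1 to 4 of the arrays labelled Fgf10+/-, against 9.49, 9.60, 9.36 and 9.55 in the arrays labelled wild type. The lowest array labelled Fgf10+/- lay 0.58 above the highest wild-type array, more than the whole range within either genotype (0.25 and 0.24). The means were 10.30 ± 0.12 (SD, n = 4) for Fgf10+/- and 9.50 ± 0.10 (SD, n = 4) for wild type, a difference of 0.80 (SE 0.11). That difference ranked 297th from the top among the 20842 genes. Its spread within a genotype was ordinary, since the pooled SD of 0.11 compares with a median of 0.13 over the 1610 genes within 0.5 log2 units of its mean signal.

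The array carries 10 Igf1 features, and all 10 had a higher mean in the arrays labelled Fgf10+/-. Their differences ran from 0.40 to 1.05, and the groups did not overlap for 7 of them, where 2.99% of all named features were parted in that direction and 4.03% in the other. The features fall into 8 annotated to the transcript record NM_010512 and 2 annotated to NM_184052. The first record is among the 21 Igf1 transcripts in the RefSeq gene table used here, and the second was not matched there and keeps the symbol of the array annotation. The 8 features of the first record differed by 0.62 to 1.05 and 7 of them were parted. The 2 features of the second record differed by 0.40 (SE 0.18) and 0.44 (SE 0.20), with overlapping groups. The brightest feature, which stands for the gene above, therefore did not have the largest difference.

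Averaging the 10 features gave 1 Igf1 value per lung. That average was 7.96, 8.04, 7.91 and 8.07 in replicates 1 to 4 of the arrays labelled Fgf10+/-, against 7.29, 7.11, 7.10 and 7.28 in the arrays labelled wild type. The difference of 0.80 equals that of the brightest feature to 2 decimals. Between lungs of a genotype the average varied by an SD of 0.09, while single features scattered around it by an SD of 0.24. The 10 features read the same 8 RNAs and are not 10 independent measurements.

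**Figure D2:**
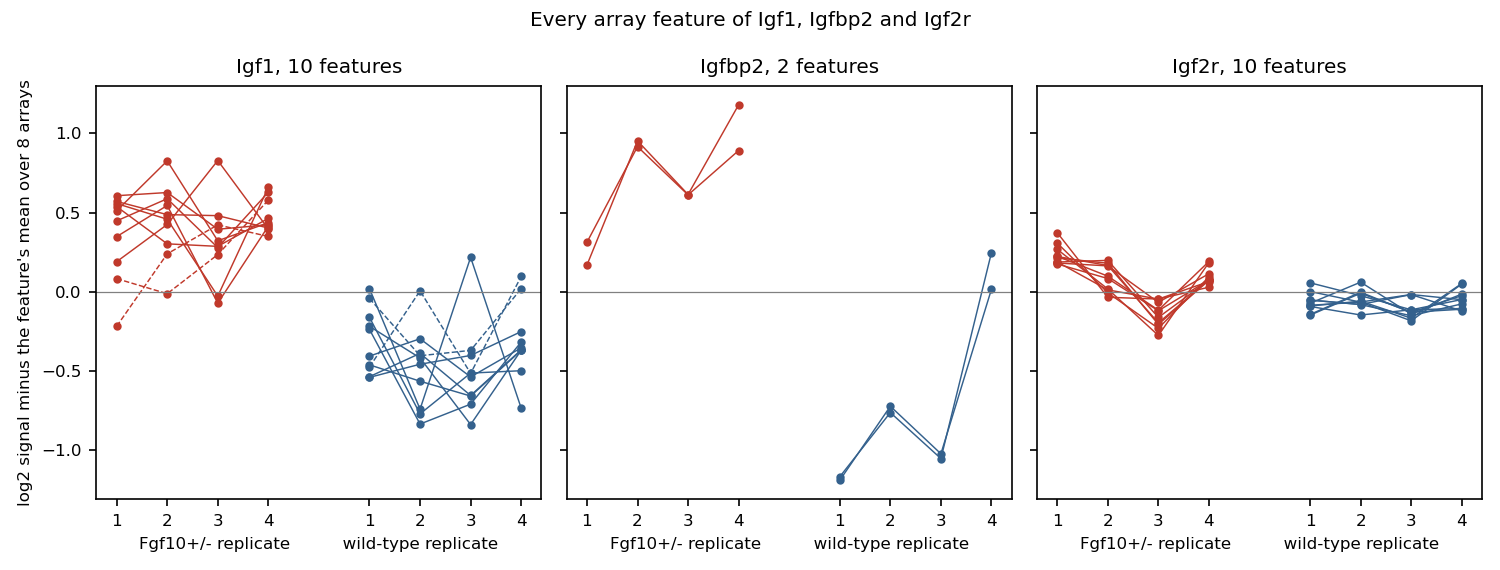
Log2 signal of every feature of Igf1 (10), Igfbp2 (2) and Igf2r (10) minus that feature's own mean over the 8 arrays (vertical axis), for arrays labelled Fgf10+/- (red, left) and wild type (blue, right) by replicate number; lines join the values of a feature and dashes mark the 2 Igf1 features of the record NM_184052. Igf1 features differ by 0.40 to 1.05 and Igf2r features by 0.08 to 0.20. The Igfbp2 features move together from lung to lung.

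Igfbp2 encodes a secreted binding protein with a preference for IGF-2 that is abundant in fetal tissues. Its log2 signal was 9.37, 9.97, 9.67 and 9.95 in replicates 1 to 4 of the arrays labelled Fgf10+/-, against 7.89, 8.29, 8.00 and 9.30 in the arrays labelled wild type. The groups were parted by only 0.06, because wild-type replicate 4 was the highest wild-type lung by more than 1 log2 unit. The means were 9.74 ± 0.28 (SD, n = 4) for Fgf10+/- and 8.37 ± 0.64 (SD, n = 4) for wild type, a difference of 1.37 (SE 0.31). It ranked 25th from the top among 20842 genes. Without wild-type replicate 4, the array with the high skeletal muscle and cartilage signal, the difference was 1.68.

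The other Igfbp2 feature gave the same picture, at 9.18, 9.97, 9.63 and 10.19 in the arrays labelled Fgf10+/- and 7.82, 8.29, 7.99 and 9.03 in the arrays labelled wild type. Its difference was 1.46 (SE 0.31). Igfbp2 varied more from lung to lung than most genes of its signal. Its pooled SD of 0.50 was above that of 98.6% of the 1848 genes within 0.5 log2 units of its mean, whose median SD was 0.16. The residual scatter between its 2 features was 0.11, so the lung-to-lung spread of 0.49 in their average was larger than the scatter between features.

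For some marker lists the range of the list's mean did not overlap between the genotypes, though no gene passed the adjusted threshold in the main limma fit. Of all named genes 49.8% had a higher mean in the arrays labelled Fgf10+/-. Alveolar type 1 markers, a list without Igfbp2, had a mean log2 signal of 10.12 to 10.36 in the arrays labelled Fgf10+/- and 10.41 to 10.51 in the arrays labelled wild type, with a lower mean for 12 of 14 genes. Alveolar type 2 markers stood at 11.28 to 11.54 in the arrays labelled Fgf10+/- and 11.87 to 12.06 in the arrays labelled wild type, with a lower mean for all 14. Cell cycle genes ran the other way, at 9.33 to 9.43 in the arrays labelled Fgf10+/- and 8.59 to 8.96 in the arrays labelled wild type, with a higher mean for 15 of 15 measured genes. Cardiac muscle genes stood at 8.01 to 8.58 in the arrays labelled Fgf10+/- and 8.93 to 9.15 in the arrays labelled wild type. Their mean was lower for 16 of 16, with a median of -0.81, and the source of their RNA was not tested. Igfbp2 thus differed in the direction opposite to the mean of the other alveolar type 1 markers. The ranges overlapped for lipofibroblast and alveolar fibroblast markers (9.29 to 9.64 for Fgf10+/- and 9.29 to 9.47 for wild type) and for macrophage markers (7.47 to 8.40 for Fgf10+/- and 7.97 to 8.15 for wild type), 2 groups of cells that make IGF-1. Smooth muscle and myofibroblast markers overlapped too, at 9.57 to 9.97 for Fgf10+/- and 9.54 to 9.74 for wild type. So did pericyte markers (9.14 to 9.32 and 8.99 to 9.19) and mesothelial markers (6.49 to 8.42 and 6.79 to 7.67). The mean was higher in the arrays labelled Fgf10+/- for 9 of 11, 9 of 12 and 9 of 10 of these markers. It was higher for 6 of 11 lipofibroblast and alveolar fibroblast markers. Endothelial markers overlapped as well, at 9.89 to 10.07 for Fgf10+/- and 9.87 to 10.08 for wild type, with a higher mean for 8 of 14. The part of cell makeup in the Igf1 and Igfbp2 differences was not tested.

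The bases before the start of both genes, and of Igfbp5 which lies next to Igfbp2 on chromosome 1, are shown because Igf1 and Igfbp2 were the members parted by genotype and Igfbp5, the neighbour, was not. The sequences are the 250 bases before a start in RefSeq's promoter table (GRCm38.p6), 5′ to 3′ on the gene's strand. The Igf1 window is chr10:87860861-87861110 on the plus strand, the Igfbp2 window chr1:72824230-72824479 on the plus strand and the Igfbp5 window chr1:72874866-72875115 on the minus strand. Capitals mark matches, on either strand, to the TATA box TATAAA, the GC box GGGCGG, the CCAAT box CCAAT or the forkhead core GTAAACA.
Igf1: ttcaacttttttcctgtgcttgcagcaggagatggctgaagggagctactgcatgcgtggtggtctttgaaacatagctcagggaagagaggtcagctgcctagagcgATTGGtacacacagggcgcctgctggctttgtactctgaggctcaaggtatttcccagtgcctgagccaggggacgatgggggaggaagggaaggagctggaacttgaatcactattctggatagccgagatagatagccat
Igfbp2: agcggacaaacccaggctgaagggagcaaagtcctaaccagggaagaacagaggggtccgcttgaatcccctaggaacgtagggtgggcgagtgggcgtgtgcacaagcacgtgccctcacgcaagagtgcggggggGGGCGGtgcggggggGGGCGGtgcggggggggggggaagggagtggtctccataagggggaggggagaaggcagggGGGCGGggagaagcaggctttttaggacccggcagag
Igfbp5: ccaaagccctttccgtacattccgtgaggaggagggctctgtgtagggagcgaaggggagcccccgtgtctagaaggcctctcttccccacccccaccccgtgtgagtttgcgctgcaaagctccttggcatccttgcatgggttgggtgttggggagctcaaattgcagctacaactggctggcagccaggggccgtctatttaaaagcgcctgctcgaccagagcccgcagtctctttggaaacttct
The Igfbp2 window held 3 GC boxes at -113, -98 and -37 from the start, and 32.7% of the 32851 windows of this length held at least 1. The Igf1 window held a CCAAT match on the opposite strand at -142, a motif found in 33.8% of windows. No match to the 4 motifs was found in the Igfbp5 window. TATAAA occurred in 12.4% and GTAAACA in 3.17% of all windows, and no marked matches overlapped. The G and C content was 67.2% for Igfbp2, 52.8% for Igf1 and 58.8% for Igfbp5. A second Igfbp2 window in the same table held none of the 4 motifs. These letters describe the windows and say nothing of which factors bind there.

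Igf2, the fetal growth ligand expressed from the paternal copy, was dim on this array. Its single feature is annotated to 1 of 7 Igf2 transcripts in the RefSeq table. Whether it lies in sequence that the other transcripts share is not known here. The feature read 4.90, 5.46, 4.05 and 5.21 in replicates 1 to 4 of the arrays labelled Fgf10+/-, against 5.53, 5.51, 3.73 and 5.22 in the arrays labelled wild type. The groups overlapped fully, with replicate 3 the lowest array in each, and the difference of -0.09 had an SE of 0.46. It turned positive, to 0.19, without replicate 3 of the arrays labelled Fgf10+/- and was -0.52 without wild-type replicate 3, so no direction can be given. H19, the imprinted noncoding RNA beside Igf2, named here after its values were seen, was bright. It read 13.15, 12.54, 12.64 and 12.52 in the arrays labelled Fgf10+/- and 12.51, 12.46, 12.37 and 13.59 in the arrays labelled wild type, where wild-type replicate 4 was again the highest.

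Igf1r, the signalling receptor, read 9.96, 9.77, 9.49 and 10.04 in the arrays labelled Fgf10+/-, against 10.01, 10.03, 9.96 and 10.17 in the arrays labelled wild type. Replicates 1 and 4 of the arrays labelled Fgf10+/- lay within the wild-type range, replicate 1 at its lower edge, and replicates 2 and 3 lay below it. The difference was -0.23 (SE 0.14), and it was -0.12 without replicate 3 of the arrays labelled Fgf10+/-.

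Igf2r, the clearance receptor, is expressed from the maternal copy in mouse tissues and was read by 10 features. All 10 had a slightly higher mean in the arrays labelled Fgf10+/-, by 0.08 to 0.20, and the groups did not overlap for 1 of them. They too read the same 8 RNAs and are not independent measurements. The average of the 10 was 10.78, 10.63, 10.40 and 10.64 in replicates 1 to 4 of the arrays labelled Fgf10+/-, against 10.48, 10.50, 10.43 and 10.50 in the arrays labelled wild type. Replicate 3 of the arrays labelled Fgf10+/- was the lowest of the 8 and the other 3 were the highest. The brightest feature differed by 0.15 (SE 0.12), and by 0.23 without that replicate 3, when its groups no longer overlapped, like those of 11.6% of all genes with that lung left out. The scatter of Igf2r features around their average, an SD of 0.07, was smaller than that of the Igf1 features at 0.24. The Igf2r features all had means of 10.26 to 10.78, while the Igf1 features ran from 5.41 to 9.90. The 2 scatters are therefore not compared at like signal.

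Among the other binding proteins Igfbp5, an extracellular matrix-bound binding protein made by mesenchymal cells, read 10.30, 9.98, 9.57 and 9.95 in the arrays labelled Fgf10+/- and 9.25, 9.82, 9.30 and 9.96 in the arrays labelled wild type. Its difference of 0.37 had an SE of 0.22 and the groups overlapped. It was 0.25 without replicate 1 and 0.50 without replicate 3 of the arrays labelled Fgf10+/-. With that replicate 3 and wild-type replicate 4 both left out the difference was 0.62, and the groups were parted, as were those of 19.2% of all genes. The neighbouring Igfbp2 and Igfbp5 genes therefore had differences of the same sign and unlike size.

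Igfbp4 encodes a binding protein that restrains IGF action until it is cleaved by PAPP-A. Its log2 signal was 8.09, 8.96, 9.05 and 8.82 in the arrays labelled Fgf10+/-, against 7.96, 8.59, 8.18 and 8.80 in the arrays labelled wild type. Replicate 1 of the arrays labelled Fgf10+/- was low while the other 3 lay above all wild-type lungs, by a margin of 0.02 at the least. The difference was 0.35 (SE 0.26), and it was 0.56 without that replicate and 0.20 without wild-type replicate 1.

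Igfbp3, the main carrier of IGFs in blood, was dim, at 4.75, 5.02, 5.28 and 5.33 in the arrays labelled Fgf10+/- and 4.41, 4.63, 5.31 and 4.34 in the arrays labelled wild type. Wild-type replicate 3 lay within the Fgf10+/- range and the other 3 below it. The difference of 0.42 (SE 0.24) ran from 0.31 without wild-type replicate 4 to 0.64 without wild-type replicate 3.

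Igfbp6, a binding protein with a strong preference for IGF-2, read 10.76, 10.41, 9.84 and 10.49 in the arrays labelled Fgf10+/- and 10.72, 10.52, 10.54 and 10.66 in the arrays labelled wild type. The difference of -0.24 (SE 0.19) depended on single lungs of the arrays labelled Fgf10+/-. It was -0.06 without their replicate 3, and -0.36 without their replicate 1, when the groups were parted, like those of 13% of all genes. Replicate 3 also had the lowest mesothelial signal, with a mean over 10 markers of 6.49, against 7.75 to 8.42 in the other lungs of its genotype and 6.79 to 7.67 in wild type. Whether the 2 values are linked was not tested.

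Igfbp7 encodes a related protein with low affinity for IGFs that is known from vessel walls. Its only feature is annotated to NM_001159518, 1 of 2 Igfbp7 transcripts in the RefSeq table, and lay near the array floor. It read 2.29, 2.34, 3.22 and 2.35 in the arrays labelled Fgf10+/- and 1.81, 2.00, 3.17 and 3.44 in the arrays labelled wild type. The difference of -0.06 had an SE of 0.41 and changed sign to 0.22 without wild-type replicate 4, so no direction can be given. Whether the feature lies in sequence that the other transcript shares is not known here.

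**Figure D3:**
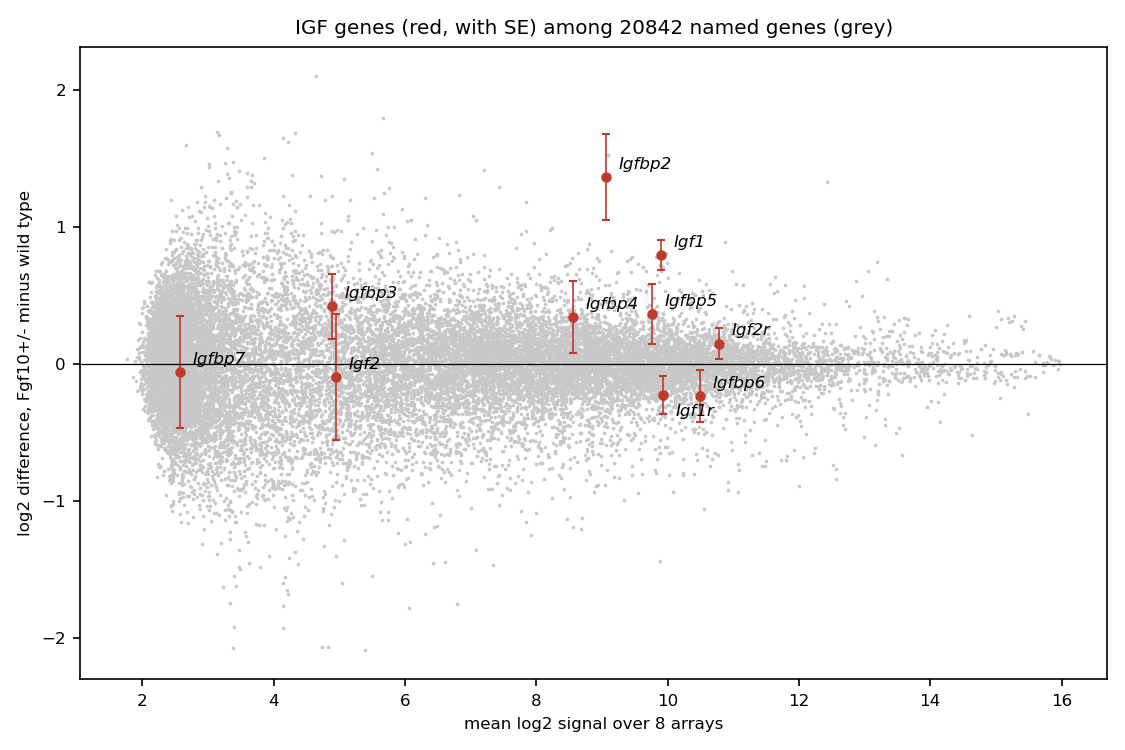
Log2 difference, Fgf10+/- minus wild type (vertical axis), against mean log2 signal over the 8 arrays (horizontal axis) for 20842 named genes (grey) and the 10 IGF genes (red, with SE). Igfbp2 at 1.37 and Igf1 at 0.80 lie near the upper edge of genes of like signal, while Igf2 and Igfbp7 have wide errors at low signal.

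**Figure D4:**
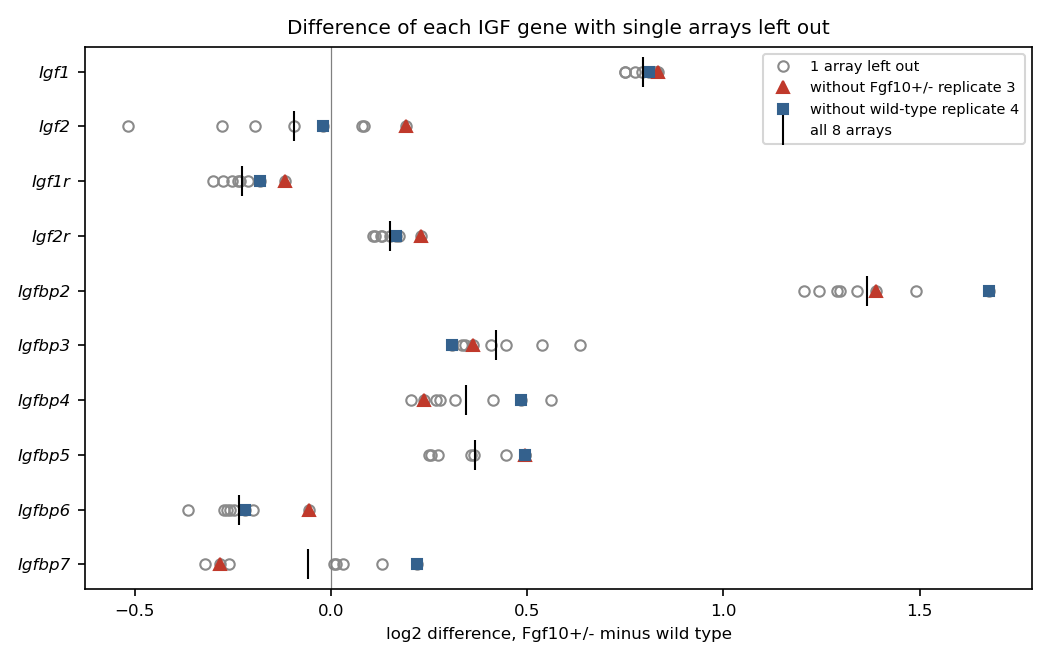
Log2 difference of each IGF gene (horizontal axis) with all 8 arrays (black bar) and with each array left out in turn (circles), with 2 single arrays marked. Igf1 stays between 0.75 and 0.83 and Igfbp2 between 1.21 and 1.68, while Igf2 and Igfbp7 lie on both sides of 0.

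Across lungs of the same genotype the IGF genes did not vary as 1 block. After subtracting each genotype's mean, the highest correlation over the 8 arrays was that of Igf1r with Igfbp6 (r = 0.85), followed by Igf2r with Igfbp5 (r = 0.81). For both pairs, replicate 3 of the arrays labelled Fgf10+/- was the lowest lung of its genotype. Igfbp2 and Igfbp4 had r = 0.77. The lowest was that of Igf2 with Igfbp3 (r = -0.71), both dim. These are descriptions over 8 arrays that share normalization and within which 1 lung can set the value.

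Beyond the 10 members, 79 other genes of the pathway were measured, in 6 lists chosen by name. These lists were chosen with earlier results of these data known, so their counts, medians and p-values are descriptions and not independent tests. With limma and Benjamini-Hochberg adjustment over all genes, 0 of the 79 passed an adjusted p of 0.05, as did 0 of 20842 genes (0%). At an unadjusted p under 0.05, 4.74% of all genes were higher and 6.29% lower in the arrays labelled Fgf10+/-. With a variance trend and robust settings 414 genes passed (1.99%), of which 3 belonged to these lists, namely Igf2bp2, Meg3 and Txnip.

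The list of proteases and inhibitors acting on binding proteins held the highest single value. Pappa2, a protease that cleaves IGFBP-3 and IGFBP-5, read 8.76, 8.94, 8.47 and 8.77 in the arrays labelled Fgf10+/- and 7.87, 7.28, 8.46 and 7.35 in the arrays labelled wild type. The groups were barely parted, and the difference of 0.99 (SE 0.26) did not pass (limma adjusted p = 0.235). Its other feature, near the floor, differed by -0.06. Mmp2, a matrix protease, differed by 0.22 (limma adjusted p = 0.560). Of the 10 genes 1 was higher and 0 were lower with unadjusted p below 0.05, and the median difference was -0.04.

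Among 16 genes of Igf2 RNA-binding proteins and imprinted growth genes, 2 were higher and 3 were lower with unadjusted p below 0.05, with a median of 0.02. Igf2bp2, which encodes a protein that binds Igf2 mRNA, read 6.36, 5.94, 5.85 and 5.80 in the arrays labelled Fgf10+/- and 6.94, 6.74, 6.84 and 6.47 in the arrays labelled wild type. Its difference was -0.76 (SE 0.16, limma adjusted p = 0.170), and its other feature differed by -0.27 with overlapping groups. Meg3, a maternally expressed noncoding RNA, differed by -0.63 (SE 0.17, limma adjusted p = 0.231), at 12.01, 11.65, 11.29 and 11.51 in the arrays labelled Fgf10+/- and 12.16, 12.41, 12.11 and 12.30 in the arrays labelled wild type. Neither passed, though the genotypes did not overlap for the brightest feature of either gene. The other Meg3 features differed by -0.54 and -0.84, with overlapping groups. Named after their values were seen, the third gene on the lower side was Dlk1, the paternally expressed partner of Meg3 in the same imprinted domain, at -0.71 (limma adjusted p = 0.238). Its groups were parted for the brightest feature and overlapped for the other. The 2 on the higher side were Dcn, a collagen-binding proteoglycan, at 0.59 (limma adjusted p = 0.316) and Peg3, an imprinted zinc finger gene, at 0.48 (limma adjusted p = 0.441).

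None of the other insulin and IGF family genes passed the test. Insr, the insulin receptor, read 6.36, 6.49, 6.25 and 6.59 in the arrays labelled Fgf10+/- and 7.07, 6.73, 6.74 and 6.80 in the arrays labelled wild type, a difference of -0.41 (SE 0.13, limma adjusted p = 0.280) with parted groups. Its other 2 features differed by -0.08 and -0.23 with overlapping groups. In the list of other insulin and IGF family genes, Insr was the 1 lower gene of 7 measured at an unadjusted p under 0.05, and 0 were higher. Igflr1, a receptor of IGF-like proteins, differed by -0.20 (limma adjusted p = 0.628) and Igfbp1, the insulin-regulated binding protein next to Igfbp3 on chromosome 11, was near the floor, with means of 3.28 in the arrays labelled Fgf10+/- and 3.65 in the arrays labelled wild type.

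Of 28 genes of the kinase cascade below the receptors, 0 were higher and 0 were lower with unadjusted p below 0.05, with a median of -0.03 beside -0.00 over all genes. The smallest p belonged to Irs2, an adaptor of both receptors, at -0.30 (limma adjusted p = 0.536) and Tsc2, a brake on mTOR that was near the floor, at -0.44 (limma adjusted p = 0.708). Akt1, named after its values were seen, had parted groups, at 12.01 to 12.11 for Fgf10+/- and 12.13 to 12.17 for wild type. It differed by -0.10 (limma adjusted p = 0.721), and its other feature had overlapping groups. Of all named genes 4.4% were parted in that direction. The growth hormone receptor axis also had 0 of 8 genes under that threshold, with Cish, a STAT5 target, at -0.35 (limma adjusted p = 0.486) and Socs3, a cytokine signalling inhibitor, at -0.17 (limma adjusted p = 0.858).

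FOXO target genes are known to be held down when IGF or insulin signals are strong, and the strength of those signals was not tested here. The 13 in the list had a median of -0.30. Of them 11 had a lower mean in the arrays labelled Fgf10+/-, beside 10465 of all 20842 named genes. With unadjusted p below 0.05, Txnip and Insr (2 genes) were lower and 0 were higher. Txnip, an inhibitor of thioredoxin and of glucose uptake, read 11.23, 11.30, 11.44 and 11.19 in the arrays labelled Fgf10+/- and 11.84, 11.76, 11.67 and 11.50 in the arrays labelled wild type, a difference of -0.40 (SE 0.12, limma adjusted p = 0.261). Its groups were parted for this feature and for its other feature. The list's mean signal lay between 6.47 and 6.84 in the arrays labelled Fgf10+/- and between 6.89 and 7.10 in the arrays labelled wild type. The genes with the lowest differences, named after their values were seen, were Klf15 at -0.90 (limma adjusted p = 0.497) and Pdk4 at -0.77 (limma adjusted p = 0.516). Neither passed, and both are known also from heart and skeletal muscle. Klf15 was dim, at a mean of 3.98, and read 2.29 in replicate 2 of the arrays labelled Fgf10+/-. Trim63, also named after its values were seen, and Igfbp1 had means of 3.30 and 3.46, about the array median of 3.47. The cardiac muscle genes given above had a lower mean as well, and their part in the list's median was not tested. Insr, Irs2 and Igfbp1 stand in a second list as well, so the lists are not separate evidence.

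**Figure D5:**
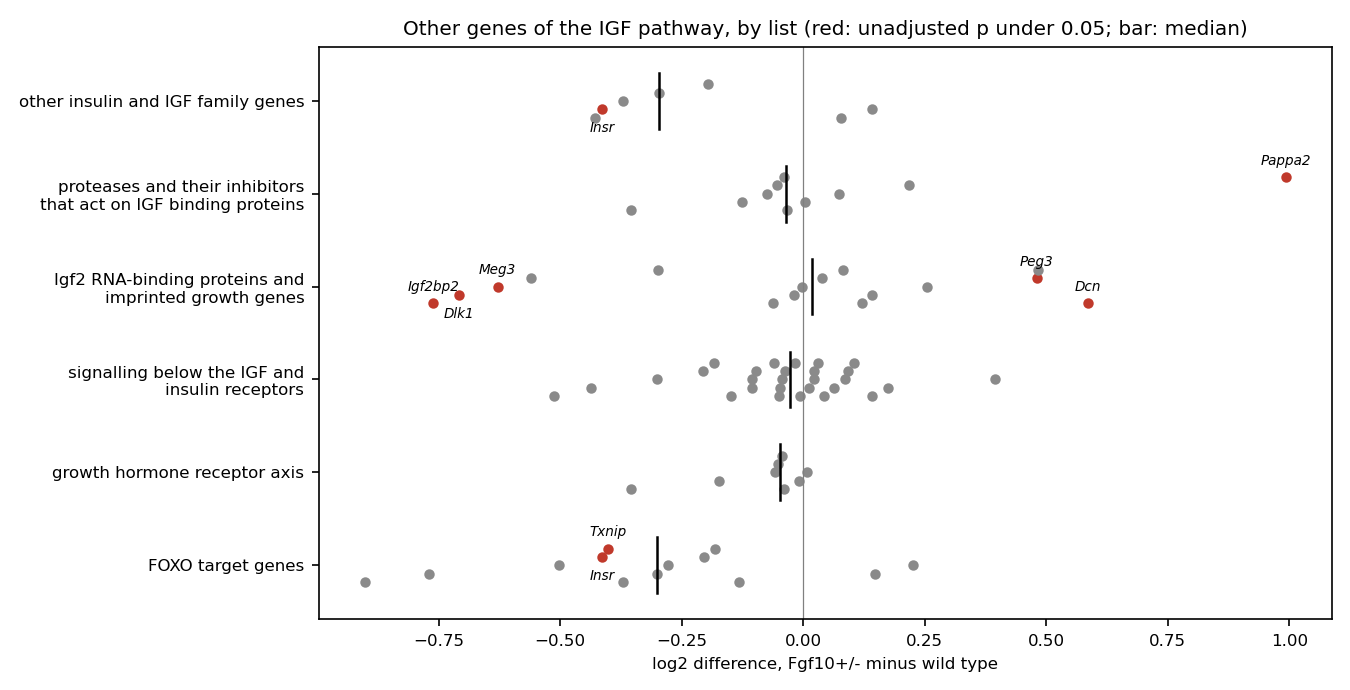
Log2 difference, Fgf10+/- minus wild type (horizontal axis), of 79 other IGF pathway genes in 6 lists, 1 point per gene, with genes at an unadjusted p under 0.05 in red and each list's median as a bar. None passed after adjustment over all genes; Pappa2 has the highest value at 0.99 and the cascade below the receptors centres on -0.03.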

How the data were processed

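Total RNA of 8 mouse lungs was extracted with the miRNeasy kit, and amplified with Agilent's low-input kit, per the labels' protocols, with Cy3 as the only dye. The authors deposited log2 signals of 62976 features. All columns share a distribution (sorted values differ by at most 0.0042), as quantile normalization leaves them. Per the submitters' processing notes, the authors worked with limma. The sources used here do not name a background correction, and differences near the floor may be compressed.

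Features with a blank (120) were left out. Of 31465 named features, 29050 matched a RefSeq gene table (GRCm38.p6) by accession, which updated 2933 symbols. The array names no build. The main fit was limma 3.58.1 in R 4.3.3 (lmFit on genotype, eBayes, two-sided, Benjamini-Hochberg, threshold 0.05), tested on simulated data. The 10 members, the pathway and marker lists and the alternatives were chosen with earlier results of these data known.

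Named were all members, Fgf10 and, per pathway list, genes past the threshold or else the 2 with the smallest p. For Igfbp2, Igf1 and Igf2 the 3 genes with the most alike deviations from the genotype means were also named. Alternatives were other feature summaries, scalings, filters on dim genes, variance models, array weights, a replicate block, platform symbols and leaving arrays out. The sources used here name no batch. The number of arrays limits the precision. Figures used matplotlib 3.10.9.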

Additional observations from a re-analysis of the deposited data

Results flagged for a closer look

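In groups of 4 arrays, 1 value stood far from the other 3 in 2 of 44 groups looked at (22 named genes in each genotype), and chance flags about 1 in 20 groups. The Igfbp7 signal in replicate 3 of the arrays labelled Fgf10+/- was 3.22, while the other 3 lay between 2.29 and 2.35, all near the floor. The Cish signal in replicate 1 of the arrays labelled Fgf10+/- was 9.55, while the other 3 lay between 9.19 and 9.24.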

How the results depend on the processing

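Differences of single IGF genes moved by less than the pooled SD between lungs, which is no support for their stability, since several alternatives leave the value as it is and 1 array of 4 can move it only so far. Igf2 and Igfbp7 changed sign. The count of genes past the threshold, 0 as reported, was 38 and 288 without genes below the 25th and the 50th percentile of mean signal (fewer genes tested), 414 under robust limma settings with a trend in the variance, and 3 with array weights. With each array left out in turn it ran from 0 to 1. The pathway count of 0 was 1 (Igf2bp2) without genes below the 50th percentile and 3 with the variance trend; the cause was not tested. The number of IGF genes with parted groups, 2, ran from 2 to 4 with single arrays left out. Igfbp4 and Igfbp6 were added without replicate 1 of the arrays labelled Fgf10+/-, Igf2r without its replicate 3 and Igfbp3 without wild-type replicate 3. The share of all genes with parted groups also went up with fewer arrays, to between 9.72% and 13.7% with 1 array left out, beside 7.39% with all. The number of IGF genes was 4 without wild-type replicate 4 and replicate 3 of the arrays labelled Fgf10+/- together (19.2% of all genes). When each feature counted, 10 of 29 were parted, 7 of Igf1, 2 of Igfbp2 and 1 of Igf2r. Features of a gene read the same RNAs. Of all named features 2.99% were parted with the Fgf10+/- arrays higher and 4.03% with them lower. Same-numbered arrays had deviations correlated at 0.11, 0.02, 0.02 and 0.08. Differently numbered arrays ran from -0.155 to 0.0695, so these values do not settle whether the numbers pair lungs. With the replicate number as a block 0 genes passed and 2 IGF genes stayed parted. Igf2, Igfbp3 and Igfbp7, at or below a mean of 4.95, are limited by their low signal.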

Other observations

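The genes whose deviations from the genotype means most resembled those of an IGF gene over the 8 arrays were searched among the 10421 genes brighter than the median. For Igfbp2 they were Xpo7 (r = 0.997), which encodes a nuclear export receptor, Atp2a3 (0.993), a calcium pump of the endoplasmic reticulum, and Mmd (0.985). For Igf1 they were Ift122 (0.985), a part of the intraflagellar transport machinery, Sting1 (0.977), a sensor of cytosolic DNA signals, and Gli3 (0.972), a transcription factor of the Hedgehog pathway. For Igf2 they were Abce1 (0.968), Cpsf1 (0.963) and Abtb1 (0.955). Unlike Igfbp2 at 1.37, its 3 look-alikes differed between the genotypes by only 0.11, 0.07 and 0.20. The largest deviation of Igfbp2 was that of wild-type replicate 4, which read 9.30 against a wild-type mean of 8.37, so that 1 lung weighs heavily in its correlations. All these correlations rest on 8 arrays, were picked as the highest of many and describe these lungs only.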
